A study of Homo sapiens with 4 samples.

Results

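Chromatin immunoprecipitation followed by sequencing located H3K27me3, histone H3 trimethylated at lysine 27, in HaCaT, an immortalised line of human keratinocytes. The regions described here are one-to-one shared peaks, places where a single DMSO peak and a single AKBA peak met. A pair was kept when both peaks were under 5000 bp wide, overlapped by at least 1 bp, and neither overlapped any further peak of the other list. There were 3427 such pairs among 8890 DMSO and 13155 AKBA peaks, so that 38.5% of the DMSO list (exact 95% binomial interval 37.5 to 39.6%) and 26.1% of the AKBA list (25.3 to 26.8%) belonged to a pair. The control cells received the solvent DMSO and the treated cells AKBA, each for 12 hours, and all came from the same cell line with no genetic change named in the labels. AKBA is the usual abbreviation of an acetylated keto-boswellic acid from frankincense resin, known as a lipoxygenase inhibitor, although the labels use the abbreviation alone and state no dose. Of the 4 samples in the series, 2 are input DNA and 2 are the H3K27me3 libraries whose peak lists were used. Each condition is thus 1 library, without a replicate, and no test of the treatment was possible.

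The mark is written by the Polycomb repressive complex PRC2 through its methyltransferase EZH2 or EZH1. Its subunit EED binds H3K27me3 already present and stimulates the enzyme, by which the mark can extend from a starting site along neighbouring nucleosomes. PRC1 complexes bind the mark through CBX proteins, and marked genes are usually silent. In keratinocytes PRC2 is known for keeping differentiation genes and genes of other lineages off. Marked regions often have gradual flanks, so that a peak edge is the place where the signal passes a caller's threshold and not a boundary of the chromatin itself.

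The pairs were chosen by the positions and widths of the called peaks and by their number of partners, which are measured values of the same contrast of libraries. Edge shifts, widths and ranks are therefore given as descriptions without a test. Binomial intervals cover counting error only; they take regions as independent and hold nothing of the spread between cultures. Sequencing depth is unknown from peak lists. Coordinates are 1-based positions of the human build hg19; an annotation and a sequence of that build were not used here, so no gene or sequence is named.

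The pairs held a larger part of the marked sequence than of the peaks. Paired DMSO peaks covered 3.75 Mb, or 49.5% of the bases in the DMSO list, and paired AKBA peaks covered 5.45 Mb, or 37.2% of the AKBA bases. By width, paired DMSO peaks (median 829 bp) stood close to DMSO peaks in overlaps with several partners (832 bp, 1339 peaks) and above DMSO peaks without a partner (352 bp, 4041 peaks). Paired AKBA peaks had a median of 1343 bp, against 3178.5 bp for the 720 peaks in overlaps with several partners and 558 bp for the 8925 without a partner. A wide peak reaches further peaks more easily, so the one-to-one rule itself keeps the widest AKBA peaks out. The next peak of the same list lay within 5 kb for 35.5% of paired DMSO peaks and for 29.3% of DMSO peaks without a partner. For DMSO peaks in overlaps with several partners it was 97.9%. The definition of that class sets this share in part, since DMSO peaks under the same AKBA peak lie close together.

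The pairs differed in shape from near-perfect coincidence to a contact of a single base. In the pair with the greatest gain of width, on chromosome 2, the DMSO peak ran from 238535579 to 238535872 and the AKBA peak from 238532767 to 238537564. The widths were 294 and 4798 bp, and the AKBA peak passed the DMSO peak by 2812 bp on the left and 1692 bp on the right. Next came a pair on chromosome 16, with a DMSO peak of 160 bp from 86760688 to 86760847 inside an AKBA peak of 4639 bp from 86759566 to 86764204. A DMSO peak of 464 bp on chromosome 18, from 8436137 to 8436600, lay inside an AKBA peak of 4026 bp from 8432688 to 8436713. In these 3 pairs a narrow DMSO peak sat within a broad AKBA peak, and the pair on chromosome 18 was lopsided, with 3449 bp on the left and 113 bp on the right.

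The opposite shape also occurred. The greatest loss of width was on chromosome 13, where a DMSO peak of 3302 bp from 114461599 to 114464900 held an AKBA peak of 854 bp from 114462329 to 114463182. On chromosome 14 a DMSO peak of 2478 bp, from 97170753 to 97173230, held an AKBA peak of 310 bp from 97171801 to 97172110. On chromosome 16 a DMSO peak of 2446 bp, from 3095019 to 3097464, held one of 400 bp from 3095802 to 3096201. The narrow AKBA peak of the last pair stood at rank 104 of the AKBA list by score, whereas that on chromosome 14 stood at rank 11568. A narrower AKBA peak was thus found with a high as well as with a low rank. The differences of these pairs, AKBA minus DMSO, were -2448, -2168 and -2046 bp, smaller in size than the 4504, 4479 and 3562 bp at the other extreme.

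Some peaks extended far on 1 side only. On chromosome 6 an AKBA peak from 160311933 to 160315702 began 3741 bp before its DMSO partner, ended 600 bp short of the partner's right edge, and shared 29 bp with it. On chromosome 4 an AKBA peak from 4853966 to 4857435 began 3210 bp before a DMSO peak of 351 bp. To the right, the farthest extension was on chromosome 13, where the AKBA peak from 112343566 to 112347219 ended 3425 bp past a DMSO peak of 276 bp. On chromosome 10 an AKBA peak from 98150867 to 98154298 ended 3330 bp past its DMSO partner. In these 4 pairs most of the AKBA peak lay beside the DMSO peak and not on it, with an overlap of 0.769 to 7.49% of the AKBA width.

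Inward shifts were shorter, and the overlap required of a pair keeps them below the width of the DMSO peak. The AKBA left edge lay farthest inside on chromosome 20, with an outward shift of -1935 bp against a DMSO peak from 36541672 to 36544402. It was followed by pairs on chromosome 10, with a DMSO peak from 102428606 to 102430418 and a shift of -1695 bp, and on chromosome 6, with a DMSO peak from 167762465 to 167765132 and a shift of -1598 bp. At the right edge the greatest inward shifts were -1848 bp on chromosome 15 (DMSO peak from 90198094 to 90200424), -1843 bp on chromosome 13 (46424375 to 46427026) and -1804 bp on chromosome 16 (84328364 to 84330273). The last of these was no narrowing, since the AKBA peak was wider, 2588 against 1910 bp, and displaced to the left by 2482 bp.

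**Figure D1:**
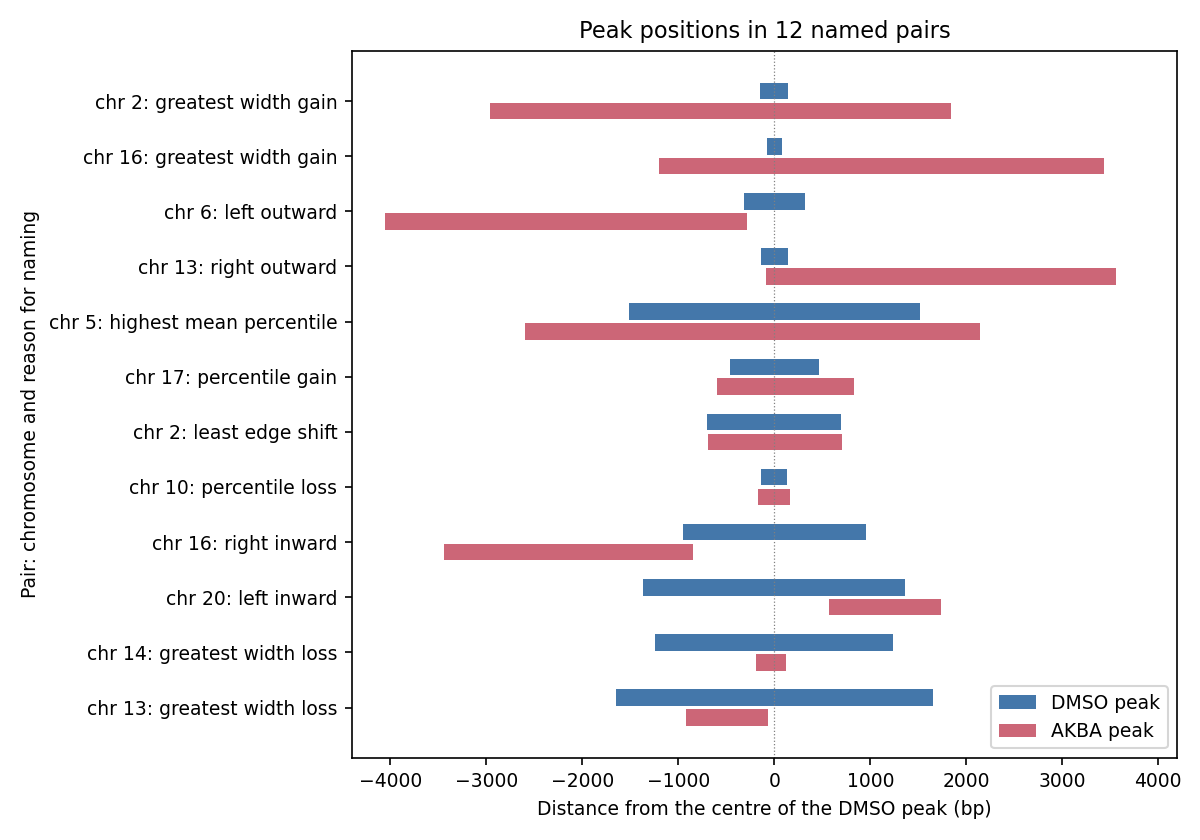
Positions of both peaks in 12 pairs, drawn to scale as distance in bp from the centre of the DMSO peak (blue, DMSO; red, AKBA), each labelled with its chromosome and the measure by which it was chosen. AKBA peaks reach from 4639 to 4798 bp around narrow DMSO peaks in the upper pairs, and DMSO peaks of 2478 and 3302 bp enclose narrow AKBA peaks in the lowest pairs.

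Across all pairs, the AKBA edges lay outside the DMSO edges more often than inside, and by nearly the same amount on both sides. The left edge was shifted outward in 2244 pairs (65.5%), inward in 1175, and stood at the same base in 8. The right edge was shifted outward in 2233 pairs (65.2%), inward in 1190, and stood at the same base in 4. The median outward shift was 135 bp on the left (quartiles -86.5 and 554.5 bp) and 127 bp on the right (quartiles -92.5 and 565 bp). The quartiles span 0, so a pair taken alone often went against the median. Regardless of direction, an edge moved by a median of 309 bp on the left and 307 bp on the right.

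The commonest shift was small, and the outward tail was the longer. Shifts of 0 to 99 bp outward formed the fullest class of 100 bp on both sides, with 413 left and 432 right edges. Within 100 bp of the DMSO edge lay 22.6% of the left and 23.2% of the right AKBA edges. Outward shifts over 500 bp were seen at 928 left and 947 right edges, against 248 and 265 inward shifts of that size. Over 1000 bp the counts were 370 and 348 outward, and 37 and 47 inward. Outward shifts thus outnumbered inward ones by a larger factor among the longer shifts, on both sides. The rule sets this in part. Because the peaks of a pair overlap, an inward shift is always shorter than the DMSO peak, which had a median width of 829 bp. An outward shift is bounded only by the AKBA width, which can reach nearly 5000 bp. Left and right follow the numbering of the chromosome and not the strand of a gene.

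**Figure D2:**
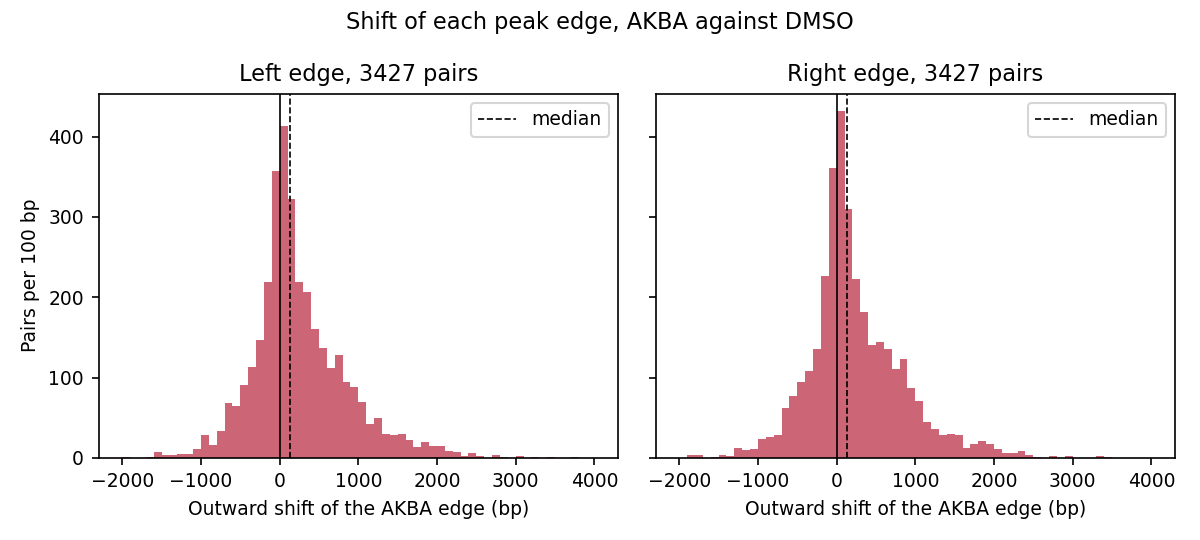
Number of pairs per 100 bp of outward shift of the AKBA edge relative to the DMSO edge (bp), for the left and right edge of 3427 pairs; positive values lie outside the DMSO peak. Both distributions peak just above 0, have medians of 135 and 127 bp (dashed lines) and a longer tail to the right of the solid line at 0.

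Both edges of a pair moved outward together less often than 1 edge alone. The AKBA peak passed the DMSO peak at both edges in 1358 pairs, 39.6% (interval 38.0 to 41.3%), where the background over all 4936 overlapping combinations of the lists was 45.2%. The DMSO peak passed the AKBA peak at both edges in 303 pairs, 8.84% (7.91 to 9.84%), with a background of 7.15%. Both backgrounds include the pairs themselves. Among the 1509 other combinations the shares were 57.7% (AKBA past both edges) and 3.31% (DMSO past both edges). The one-to-one rule sets these differences in part, because it leaves out AKBA peaks that bridge several DMSO peaks. In the remaining pairs, apart from 12 with an edge in common, the peaks were staggered. The AKBA peak was displaced to the left in 884 pairs and to the right in 870. Both edges lay outward by over 500 bp in 219 pairs and inward by over 500 bp in 12. Across pairs, the left and right outward shifts had a Spearman rho of -0.12 (n = 3427 pairs of the same libraries), so an extension on 1 side was hardly related to one on the other.

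Staggered pairs had intermediate widths. The classes set this order in part, since a peak that passes its partner at both edges is by definition the wider. Where the AKBA peak passed both edges, the DMSO peak had a median width of 669.5 bp and the AKBA peak of 1840 bp. Where the DMSO peak passed both edges, the medians were 1324 and 705 bp. In pairs with the AKBA peak displaced to the left they were 833.5 and 1127.5 bp, and in those displaced to the right 868 and 1090 bp. In the staggered pairs the AKBA peak extended by a median of 402 bp on the left or 411.5 bp on the right with an outward shift of -209.5 or -206 bp on the other side. The centre of the AKBA peak stood a median of 278.5 bp from the centre of the DMSO peak, in either direction.

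The AKBA peak was the wider of the pair in 2499 pairs, 72.9% (interval 71.4 to 74.4%), the DMSO peak in 927, and 1 pair had equal widths. DMSO widths ran from 160 to 4883 bp (quartiles 451 and 1474 bp) and AKBA widths from 214 to 4962 bp (quartiles 776 and 2190.5 bp). The difference, AKBA minus DMSO, had a median of 389 bp (quartiles -33.5 and 959 bp), and the ratio a median of 1.43. AKBA peaks were at least 1.5 times as wide in 1638 pairs, 47.8%, against a background of 58.2% of all overlapping combinations. DMSO peaks were at least 1.5 times as wide in 376 pairs, 11.0%, against 9.89%. Of the 1509 combinations outside the pairs, 81.8% had an AKBA peak at least 1.5 times as wide, which follows in part from leaving AKBA peaks that bridge several DMSO peaks out of the pairs.

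The 2 lists also differed in their narrowest peaks, 160 bp in the DMSO list and 214 bp in the AKBA list. Counted in multiples of that narrowest width, the median paired peak measured 5.18 in the DMSO list and 6.28 in the AKBA list. On this scale the AKBA peak was the wider in 1863 pairs, 54.4% (interval 52.7 to 56.0%). The narrowest width was found for 126 paired DMSO peaks (3.68%) and 52 paired AKBA peaks (1.52%), against 8.58% of all DMSO and 7.69% of all AKBA peaks. In 4 pairs both peaks were at it. With 1 library per condition, a setting of the caller cannot be told apart from the treatment.

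**Figure D3:**
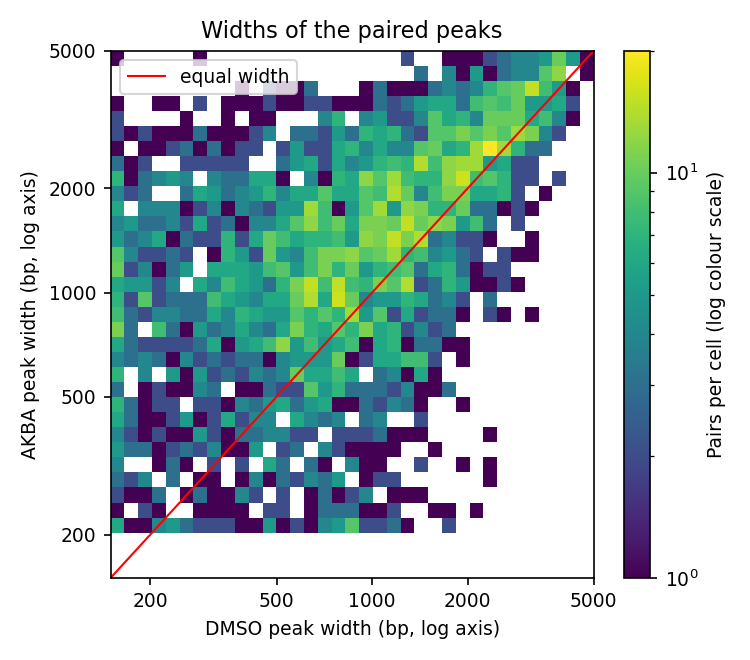
Width of the AKBA peak against width of the DMSO peak in each of the 3427 pairs (bp, both axes logarithmic), with colour giving the number of pairs per cell and the red line equal widths. In 2499 pairs the AKBA peak is wider and lies above the line; the spread around it is greatest for narrow DMSO peaks.

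Wide pairs and narrow pairs differed in how the gain of width appeared. Pairs were split into quintiles by the mean width of both peaks. AKBA widths spread more than DMSO widths (SD 1046 and 864 bp), so this split too fixes part of the difference. In the narrowest quintile (mean width up to 622.5 bp) the median difference was 111 bp, with medians of 333 bp for DMSO and 475 bp for AKBA. In the middle quintile it was 540 bp, with 815.5 and 1369.5 bp. It was greatest in the next, 686 bp, with 1237 and 1932 bp. In the widest quintile (mean width from 1987 bp) it was 658 bp, with 2326 and 3085.5 bp. The ratio was highest in the middle quintile, with a median of 1.65, and was 1.35 and 1.25 in the narrowest and widest. The AKBA peak was the wider in 64.1% of the narrowest and 78.3% of the widest quintile, and passed both edges in 27.9 and 48.4%. Splitting by the widths of a single list gave contrary pictures, as choosing narrow or wide peaks in that list fixes part of the difference. By DMSO width the median difference went down from 678 bp in the narrowest to 201.5 bp in the widest quintile. By AKBA width it went up from -112 to 1191 bp.

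The peaks of a pair coincided only in part. The overlap had a median of 603 bp, which was 93.1% of the DMSO peak, 55.8% of the AKBA peak and 44.9% of the span of both together. Each peak covered at least 50% of the other in 1643 pairs (47.9%), at least 80% in 496 and at least 90% in 181. Both edges matched within 100 bp in 183 pairs. The closest match was on chromosome 2, where the DMSO peak ran from 90449486 to 90450879 and the AKBA peak from 90449496 to 90450882. Next were peaks of 463 and 475 bp on chromosome 1 (DMSO from 145562934 to 145563396) and of 555 and 574 bp on chromosome 21 (DMSO from 27945020 to 27945574). At the other end, 154 pairs shared under 100 bp. A pair on chromosome 11 met at the single base 61347261, the end of a DMSO peak and the start of an AKBA peak, and a pair on chromosome 15 met at base 92750744. A pair on chromosome 16 shared 2 bp, with a DMSO peak from 17563874 to 17564241.

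Pairs with high scores coincided better than pairs with low scores, although their edges moved as far. The authors' score, in column 5 of each list, has no stated scale, so each peak was placed by its percentile within its own list, with 100 the highest score. In the lowest quintile of mean percentile the overlap made up a median of 32.8% of the span, and in the highest 66.2%. The absolute shift of the left edge had a median of 289 bp in the lowest and 307 bp in the highest quintile, and of the right edge 278 and 273.5 bp. The mean width of the pair had a median of 743 bp in the lowest and 1965 bp in the highest quintile. The AKBA peak was the wider in 70.2% of the lowest and 73.3% of the highest quintile. Edge shifts of like size were therefore a smaller part of the high-scoring pairs, which were wider.

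Paired peaks ranked above the middle of both lists, though below the other overlapping peaks. The median percentile was 60.3 in the DMSO list (quartiles 35.8 and 81.2) and 73.2 in the AKBA list (50.5 and 88.9). Peaks in overlaps with several partners had medians of 67.3 (DMSO) and 85.1 (AKBA). One-to-one pairs over the width limit had 86.9 and 93.6. Only peaks without a partner were lower, with 34.9 and 38.1. In the AKBA list 770 paired peaks (22.5%) stood in the top decile and 296 (8.64%) at or below percentile 25. In the DMSO list the numbers were 453 (13.2%) and 539 (15.7%). Over a whole list these shares are about 10 and 25% by definition. The percentile was higher in the AKBA list for 2265 pairs (66.1%), with a median difference of 9.03 points (quartiles -6.28 and 28.4). Ranks from lists of different length cannot be read as a change of signal. With the 8890 highest-scoring peaks taken from each list the median difference was 2.94 points. The percentile was higher with AKBA in 66.1% of pairs with the wider AKBA peak and in 66.0% of pairs with the wider DMSO peak, and the differences of rank and width were nearly unrelated (Spearman rho 0.03 over 3427 pairs).

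Ranking the pairs among themselves gives both lists the same length. A pair's place then differed between the conditions by a median of 19.2 percentile points, by at most 10 points in 1019 pairs and by over 50 points in 406. The scores had a Spearman rho of 0.43 and the widths of 0.52 over the 3427 pairs. Of the 343 pairs in the top decile by DMSO score, 118 were also in the top decile by AKBA score. By definition a top decile holds about 10.0% of all pairs.

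**Figure D4:**
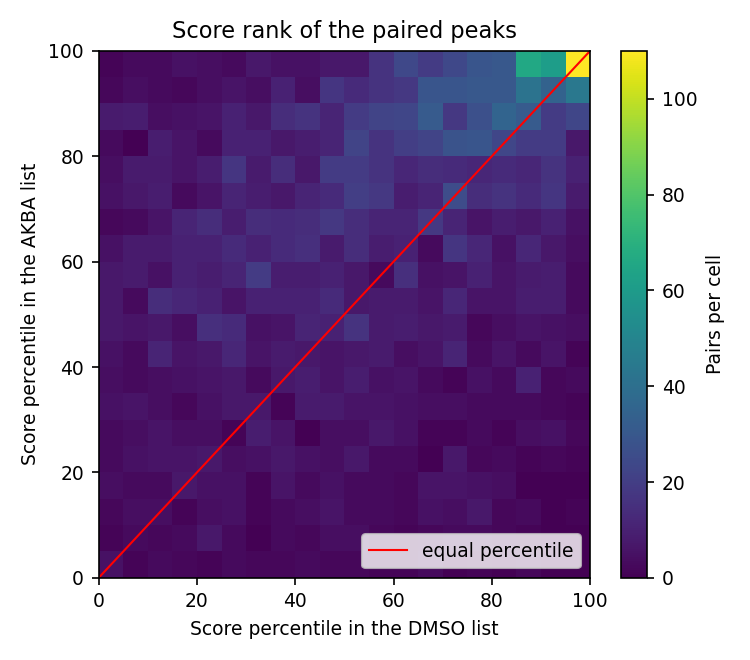
Percentile of the score within the AKBA list against that within the DMSO list for 3427 pairs, in cells of 5 by 5 points, with colour giving pairs per cell and the red line equal percentiles. The fullest cell is the top corner, and 2265 pairs lie above the line, in lists of different length.

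The pairs at the top of both lists were of unequal form. The highest mean percentile belonged to a pair on chromosome 12, with a DMSO peak of 374 bp from 8757739 to 8758112 at rank 5 and an AKBA peak of 319 bp from 8757822 to 8758140 at rank 7. The second, on chromosome 5, had a DMSO peak of 3026 bp from 32710820 to 32713845 at rank 9, inside an AKBA peak of 4748 bp at rank 5. The third, on chromosome 14, had a DMSO peak of 1464 bp from 36003881 to 36005344 at rank 18 and an AKBA peak of 2728 bp at rank 8. A top rank was thus held by narrow as well as broad pairs.

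In some pairs the peaks stood near opposite ends of their lists. On chromosome 17 a DMSO peak from 31254367 to 31255300 stood at rank 8655, and its AKBA partner from 31254233 to 31255663 at rank 143. On chromosome 12 the ranks were 8291 for the DMSO peak from 51818416 to 51819035 and 357 for its partner. On chromosome 2 they were 8219 for the DMSO peak from 71069762 to 71070129 and 363. In the other direction, a DMSO peak on chromosome 7 from 28451987 to 28452173 stood at rank 1135 and its partner at rank 13142, near the foot of the AKBA list. On chromosome 10 a DMSO peak from 42392597 to 42392868 stood at rank 67 and its partner at rank 11472. The latter pair had a further DMSO peak 6.91 kb to the left, whereas the next AKBA peak on that side was 6037 kb away. On chromosome 19 the ranks were 1062 for the DMSO peak from 51070402 to 51071271 and 12643. Widths in these 6 pairs differed by 580 bp or less.

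Pairs varied in how near other peaks lay. In 1586 pairs (46.3%) each peak stood over 5 kb from the next peak of its own list. Distances from a paired peak to further peaks of the other list do not enter this count. Paired peaks had a neighbour of their own list within 5 kb more often than peaks without a partner. The shares were 35.5 against 29.3% for DMSO and 45.9 against 36.3% for AKBA. An AKBA peak without a partner lay within 5 kb of 1041 pairs (30.4%), a DMSO peak without a partner near 635 (18.5%), and both kinds near 231. The first 2 counts are not on a common scale, as 8925 AKBA but 4041 DMSO peaks had no partner. Pairs beside such an AKBA peak had a median width difference of 366 bp, and the other pairs of 402 bp. Pairs beside such a DMSO peak had 462 bp, and the others 371 bp.

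An AKBA edge extended less toward a near DMSO peak. Where the next DMSO peak on that side was under 2 kb away, the median outward shift was 71 bp on the left (416 edges) and 58 bp on the right (399 edges). At 2 to 5 kb it was 195 and 159 bp, and beyond 100 kb it was 132 and 124 bp. The rule sets this in part, because an AKBA peak that reaches the next DMSO peak forms no pair.

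The pairs lay on all 23 chromosomes with peaks, from 23 on chromosome 21 to 319 on chromosome 1. The median width difference was above 0 on each of the 23, from 310.5 bp on chromosome 13 to 459.5 bp on chromosome 9. The median outward shift was above 0 on 23 of 23 chromosomes for the left edge and on 22 for the right edge. The exception was chromosome 18, with -4 bp on the right and 219 bp on the left over 66 pairs. Neither side led throughout, since the left median was the higher on 12 chromosomes. More pairs had the AKBA peak past both edges than the DMSO peak past both edges on all 23, from 25.8 against 6.06% on chromosome 18 to 48.9 against 2.13% on chromosome 4.

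Chromosomes X and 18 were at the ends of the share of peaks in pairs. On X the pairs took in 61 of 122 DMSO peaks (interval 40.8 to 59.2%) and 38.6% of AKBA peaks (31.0 to 46.7%). On chromosome 18, 66 pairs made up 28.9% of DMSO peaks (23.2 to 35.3%) and 17.9% of AKBA peaks (14.2 to 22.2%). On 20 of 23 chromosomes the interval of the DMSO share held the overall 38.5%, and on 16 of 23 that of the AKBA share held the overall 26.1%. By density, chromosome X had the fewest pairs, 0.413 per Mb between the outermost peaks, and chromosome 20 the most, 3.01 per Mb. The lists themselves were sparse on X, with 122 DMSO and 158 AKBA peaks over 147.8 Mb, and dense on chromosome 20, with 483 and 736 over 62.8 Mb. On chromosome 20 the pairs took in 39.1% of DMSO and 25.7% of AKBA peaks, near the overall shares.

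**Figure D5:**
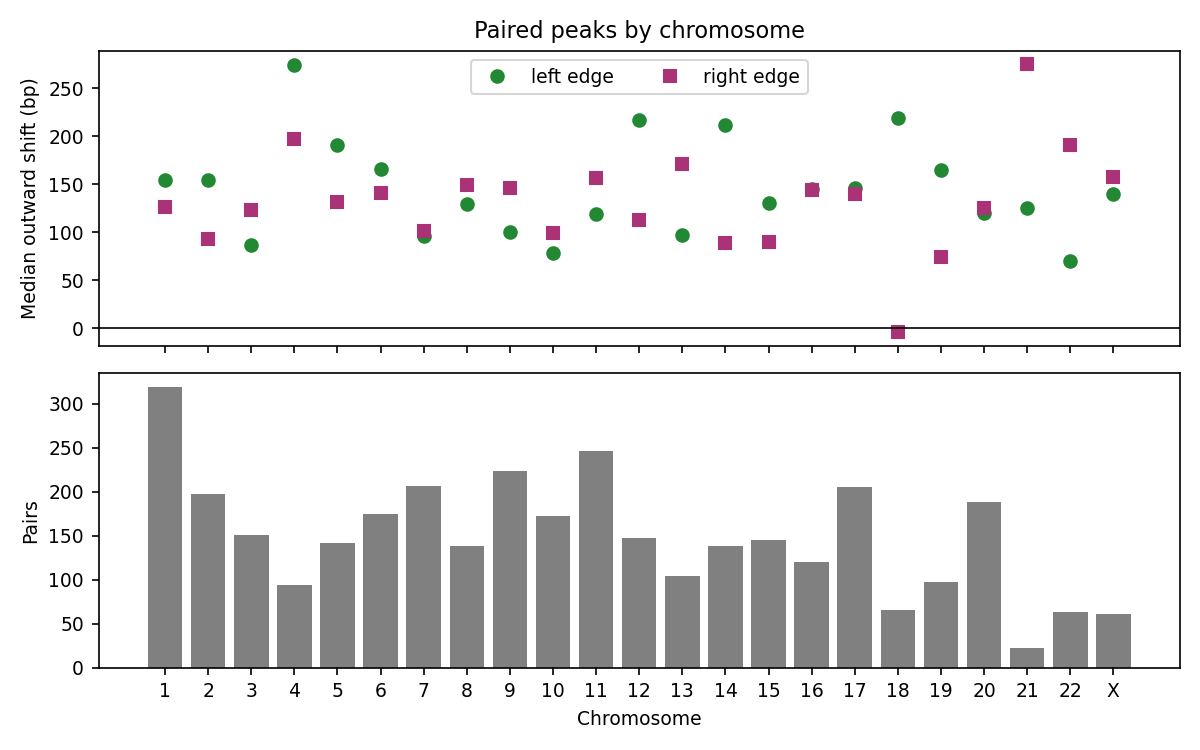
Upper panel, median outward shift of the left (circles) and right (squares) AKBA edge in bp for the pairs of each chromosome; lower panel, number of pairs per chromosome. Medians run from 70 to 274 bp on the left and from -4 bp on chromosome 18 to 275 bp on chromosome 21 on the right, where chromosome 21 has 23 pairs.

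The width limit cut through a continuous range. Ordered by the wider peak of each pair, the last pair inside it, on chromosome 2, had a DMSO peak of 3793 bp from 39891882 to 39895674 and an AKBA peak of 4962 bp. By the same order the first pair outside it, on chromosome 7, had a DMSO peak of 4571 bp from 1263528 to 1268098 and an AKBA peak of 5003 bp. Of the 83 one-to-one pairs beyond the limit, 81 had an AKBA peak of 5000 bp or more, 37 such a DMSO peak, and 35 both. The AKBA peak was the wider in 68 of the 83.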

How the data were processed

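Peak lists of 1 H3K27me3 library per condition were analysed; the input DNA samples were not used here. Per the submitters' processing notes the build was hg19 and BWA, STAR and MACS2 were named, with no version; no source used here gives the calling threshold or the use of input DNA. The authors deposited 1 score per peak on an unstated scale, and it was used for ranks within a list and for 1 filter. Other deposited values are start and end positions. The narrowest width was 160 bp (DMSO) and 214 bp (AKBA), and the smallest gap between neighbours 641 and 857 bp, so peak edges of the lists may have been set differently.

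Pairs were found in Python 3.11.15 (pandas 2.3.3, numpy 2.4.6, scipy 1.17.1). The count of 3427 was the same with bedtools 2.31.1, and the procedure was tested on simulated data. Outward shifts are DMSO start minus AKBA start and AKBA end minus DMSO end. Ties in score shared their mean rank. Exact Clopper-Pearson intervals were used for shares. Named pairs are the 3 at each extreme of width difference, edge shift, edge match, percentile and overlap, and the pairs next to the width limit. Members, rules and alternatives were chosen with earlier results of these data known. Genes were not assigned and no sequence was read, since only tables of another build were at hand.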

Additional observations from a re-analysis of the deposited data

How the results depend on the processing

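With 1 library per condition, no replicate could be left out. No paired analysis was possible because each condition has 1 library and no test was made. No value changed direction under the alternatives run. Of 65 values recomputed, 41 stayed within the binomial interval of the reported value (medians by order statistics; the number of pairs within 1.5 times) and 24 did not. A score minimum of 3 in both lists gave 1947 pairs, a median width difference of 533 bp, 75.6% with the wider AKBA peak, outward shifts of 164 bp (left) and 161 bp (right), and 44.7% with AKBA past both edges. A reciprocal overlap of at least 50%, which by construction removes large shifts, gave 1643 pairs, 182 bp, 67.4%, 67 bp, 64 bp and 35.7%, with 11.2% of pairs having the DMSO peak past both edges. DMSO peaks merged when at most 856 bp apart and padded by 27 bp on each side gave 315.5 bp, 68.4%, 98 bp, 96 bp, 34.4% and 12.2%. Equal numbers of peaks per list gave 429 bp and a percentile difference of 2.94. An overlap of at least 100 bp gave 41.5% with AKBA past both edges, and widths of at least 1000 bp left 1219 pairs. Widths in multiples of the narrowest width, chosen after seeing the data, gave 54.4% with the wider AKBA peak. Removing the width limit, or the peaks at the narrowest width, left all 8 results within those bounds. Unknown depth limits every value.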

Other observations

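Windows with many pairs also held many peaks of both lists. The pairs fell in 1401 windows of 1 Mb, of which 650 held a single pair and 165 held at least 5, with 1258 pairs in the latter. The windows named here were chosen after their values were seen. The fullest lay on chromosome 17 between 77 and 78 Mb, with 30 pairs among 55 DMSO and 72 AKBA peaks, and the AKBA peak was the wider in 22 of them, close to the 72.9% of all pairs. It was followed by chromosome 16 between 86 and 87 Mb, with 24 pairs among 51 DMSO and 76 AKBA peaks, of which 20 had the wider AKBA peak. On chromosome 9 between 138 and 139 Mb there were 22 pairs among 43 DMSO and 56 AKBA peaks, of which 20 did. In the window on chromosome 9 the median outward shifts were 526 bp on the left and 357 bp on the right, above the 135 and 127 bp of all pairs, and neighbouring peaks there share their surroundings and are not independent.

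Among the 165 windows with at least 5 pairs, the AKBA peak was the wider in most pairs of 145, and in every pair of 21. The DMSO peak was the wider in most pairs of 14. The greatest median difference was on chromosome 15 between 65 and 66 Mb, 1629 bp over 5 pairs, with outward shifts of 1413 bp on the left and 58 bp on the right. The next were on chromosome 12 between 54 and 55 Mb, 1224 bp over 5 pairs, and on chromosome 13 between 25 and 26 Mb, 1222 bp over 7 pairs that all had the wider AKBA peak. The lowest median was on chromosome 8 between 23 and 24 Mb, -301 bp, where the AKBA peak was the wider in 1 of 5 pairs. It was followed by chromosome 7 between 157 and 158 Mb, -275 bp, and chromosome 15 between 69 and 70 Mb, -263 bp, over 5 pairs each. These windows hold few pairs, and their differences were not tested.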
